A study of Homo sapiens with 6 samples.

Results

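The replication-dependent histone genes are the multicopy genes that supply H1, H2A, H2B, H3 and H4 protein during DNA replication. They were chosen by gene symbol, as H1-1 to H1-6 and every H2AC, H2BC, H3C and H4C gene, or by an older symbol that begins HIST1H to HIST4H, with pseudogenes dropped. The rule found 91 candidates among 78932 gene identifiers, of which 20 were pseudogenes, and left 71 genes: 6 of H1, 17 of H2A, 19 of H2B, 14 of H3 and 15 of H4. Of these, 70 were found by their present symbol and 1, H3-4, by its older name.

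RNA was sequenced from the Karpas-45 line, established from human T-cell acute lymphoblastic leukemia and grown in RPMI-1640 with serum. The MEF2C hairpin group carried a lentiviral, GFP-linked short hairpin RNA against the transcription factor MEF2C and is labelled MEF2C knockdown. The scramble group carried a scramble control and is labelled wild type. Both groups are labelled untreated and as leukemic blasts of bone marrow, the virus was made in HEK293T cells, and the cells were sorted for GFP at 120 hours. There were 3 libraries in each group, named here by group and number. The labels call them technical replicates of 1 line, so the spread behind every p-value is that between technical replicates. Of the series' question, menin in T-lineage leukemia, these samples address what differs under the MEF2C hairpin.

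Gene reads per library ran from 50991704 to 97077335 in the MEF2C hairpin group and from 45560303 to 63228784 in the scramble group, so 3 reads, the detection floor used here, are at most 0.0658 of every 1000000 gene reads. That floor covers counting error only. CPM below are scaled to 1000000 gene reads with TMM-scaled library sizes, and the intervals come from the fit and include the spread between libraries. MEF2C itself had 2, 0 and 0 reads in MEF2C hairpin libraries 1 to 3, against 2, 1 and 0 reads in scramble libraries 1 to 3. It lay at or under the floor in every library, so its mRNA cannot check the labels. The T-lineage markers were all expressed, with a summed level of 3568 to 3646 CPM in MEF2C hairpin and 3358 to 3446 CPM in scramble libraries. Of the 12, 8 rose and 1 fell (edgeR), where 13.5% of all tested genes rose and 15.3% fell. The summed markers of myeloid, B, NK and erythroid cells reached at most 6.95 CPM in any list and library, with EBF1 and PF4 at 0 in every library. Those of the virus-producing embryonic kidney cells summed to 161 to 163 CPM in MEF2C hairpin and 162 to 166 CPM in scramble libraries, with WT1 at 135 to 136 CPM in MEF2C hairpin and 138 to 141 CPM in scramble libraries. PODXL, at means of 24 CPM in MEF2C hairpin and 21.6 CPM in scramble libraries, made up most of the rest. GPC3 stayed under 1 CPM and SIX2 was at 0 in every library. Of that list PODXL and GPC3 rose and CRABP2 fell (edgeR). It was not tested whether the sum reflects such cells. Whether any of these markers bears on the histone values was not tested.

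Core histones H2A, H2B, H3 and H4 form the nucleosome, and the linker histone H1 binds the DNA that enters and leaves it. Replication-dependent histone mRNAs are known for ending in a conserved stem-loop in place of a poly(A) tail: the stem-loop binding protein SLBP and the U7 small nuclear ribonucleoprotein direct cleavage just after it, and the mRNAs are destroyed when DNA synthesis stops. NPAT, a cyclin E-CDK2 substrate, gathers the transcription machinery at these gene clusters. Many histone genes can also use polyadenylation signals further downstream, which makes longer, polyadenylated mRNAs.

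The stem-loop, the element that sets this family apart from other mRNAs, is shown here for 1 tested gene of each form found. Each line runs 5′ to 3′ in the DNA letters of GENCODE 29 transcripts (GRCh38), with the 16-base stem-loop in capitals and 5 bases on each side.
H2BC21, chromosome 1: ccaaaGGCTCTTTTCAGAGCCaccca
H2BC5, chromosome 6: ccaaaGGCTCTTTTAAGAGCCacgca
H2AC11, chromosome 6: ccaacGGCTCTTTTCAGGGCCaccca
H4C8, chromosome 6: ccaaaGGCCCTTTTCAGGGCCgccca
H4C9, chromosome 6: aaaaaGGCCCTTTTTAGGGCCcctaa
The form of H2BC21 was found in 15 genes of H2A, H2B and H3, and the forms of H4C8 and H4C9 in 5 and 3 genes, all of H4. The form of H2BC5 was found in 5 genes of H2B and H3, and that of H2AC11 in 1 gene. The search was for GG, 4 bases, TTNN, 4 bases and CC on the transcript strand, with the 6-base arms able to pair, G-T pairs allowed, and with T or C as the third and A, C or T as the last base of the loop. It matched an annotated transcript of 29 of the 67 members with a GENCODE 29 model, and of 0.666% of 19684 protein-coding genes. A match is a description of letters, and no match says only that they are not in the annotated transcript. The annotated transcript of H2BC21 runs on for 1729 bases after the stem-loop and that of H4C8 for 1655 bases, while a transcript of H2BC5 ends 39 bases after it.

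The members lie in known clusters. On chromosome 6, 34 lie from 25726132 to 26285638 and 21 from 27125897 to 27893843 (GRCh38, positions from GENCODE 29, or from RefSeq for 4 members). On chromosome 1, 11 lie from 149782689 to 149887916 and 3 from 228424845 to 228460470. H4C16 lies alone on chromosome 12 from 14767999 to 14771131, and H2BC12L on chromosome 21 from 43565189 to 43565648.

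Detection was uneven across classes. Over all 6 libraries, 10 members had no read, 17 (these 10 included) had at most 3 reads in every library, and 54 had more than 3 in at least 1. The filter on low counts kept 38 for testing: 5 of H1, 8 of H2A, 11 of H2B, 7 of H3 and 7 of H4. By cluster it kept 19 of 34 and 13 of 21 on chromosome 6, 5 of 11 and 0 of 3 on chromosome 1, and H4C16, but not H2BC12L. The 3 members of the distal chromosome 1 cluster, H2AC25, H2BC26 and H3-4, had at most 3 reads in any library.

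Some of these low counts concern genes that the counting could not separate. HTSeq leaves out reads that align to more than 1 place or fall in more than 1 gene. H3C14 and H3C15 shared 100% of their 50-base windows and were at 0 in every library, and H4C14 and H4C15 shared 97.5%. H4C11 and H4C12 shared all windows of the shorter transcript, H3C12 and H2AC17 86.3%, H2AC13 and H2AC14 83.7%, and H2BC12 and H2BC12L 61.4%. The levels of these genes are uncertain for that reason. Those of H3C4 and H2AC15 are uncertain too, as their exonic bases lie wholly under other genes' exons on either strand. How many of their reads were left out depends on the strand setting, which is not given.

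Per length, H2B genes led. The highest mean level over the 6 libraries was that of H2BC11, at 78.7 RPKM (CPM divided by the exonic length in kilobases), followed by H1-2 at 74.7, H2BC5 at 53.8, H2AC6 at 36.6, H2BC4 at 36.6, H2BC21 at 24.9 and H2BC17 at 22.2 RPKM. The highest H4 gene was H4C8 at 12 RPKM, and the highest H3 gene was H3C4 at 7.22 RPKM. In the MEF2C hairpin libraries the 5 members with the most reads, H2BC11, H2AC6, H2BC21, H2BC5 and H1-2, held 61.7% of all reads of the family.

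Against the scramble libraries, 10 of the 38 tested members rose in the MEF2C hairpin libraries and 0 fell (edgeR quasi-likelihood test, Benjamini-Hochberg adjusted p under 0.05). Of all 17677 tested genes, 28.8% passed in either direction, 13.5% rose and 15.3% fell. The members' total share, 26.3%, was thus near the background, and all of it lay on the higher side. At an unadjusted p under 0.05, 11 members were higher and 0 lower, and DESeq2 and limma-voom each called 10 higher and 0 lower. Over tested members the median log2 fold change was 0.32, against 0.00 over all tested genes, with 34 members above 0 and 4 below. In 12 members every MEF2C hairpin library lay above every scramble library, and in 0 every one lay below, beside 19.5% and 20.5% of all tested genes. These are bulk libraries, so a larger share of cells in S phase and more histone RNA per cell cannot be told apart.

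**Figure D1:**
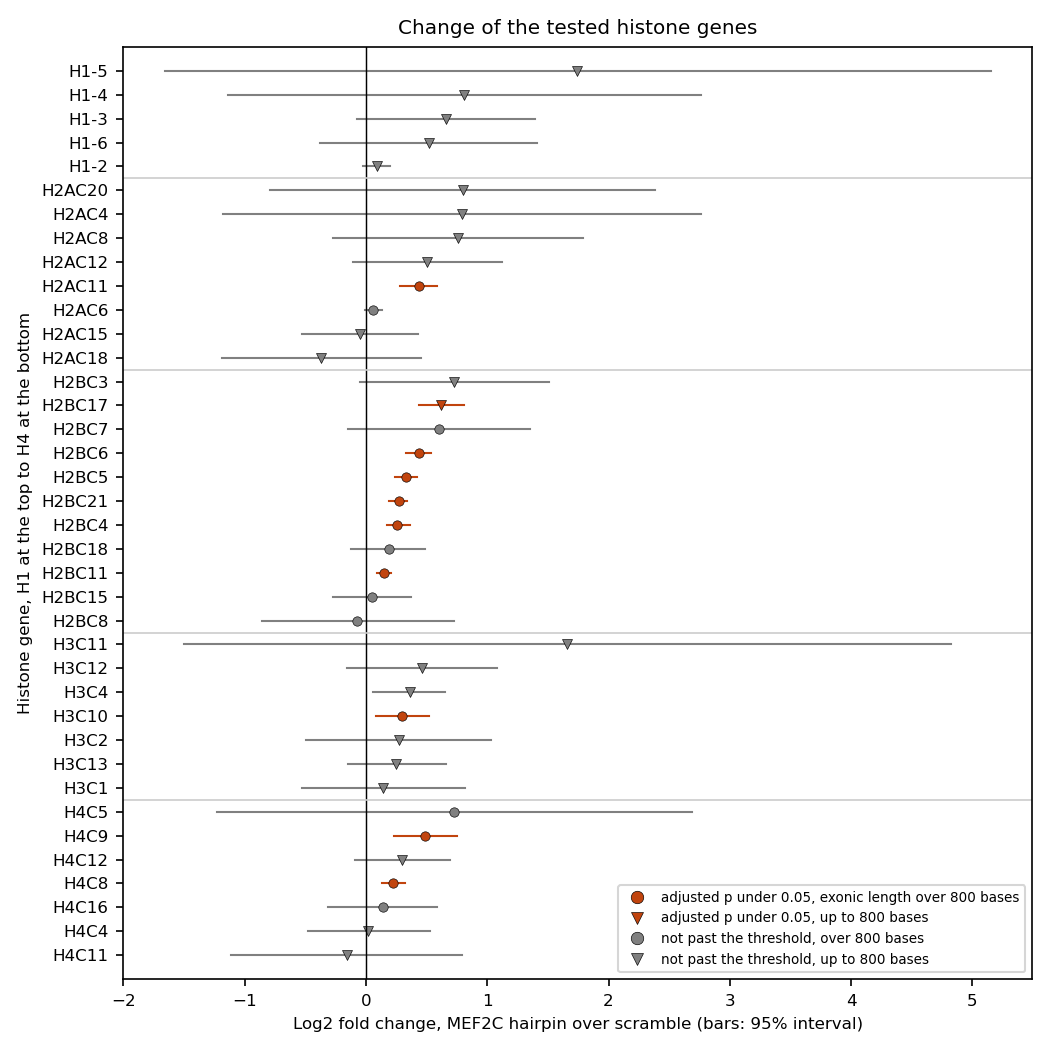
Log2 fold change (x axis, MEF2C hairpin over scramble) of the 38 tested histone genes, one row each, from H1 at the top to H4 at the bottom. Bars are approximate 95% intervals from the SE and a normal quantile, narrower than the F test implies for members whose libraries differ widely. Orange marks adjusted p under 0.05, circles are genes with over 800 exonic bases and triangles shorter ones. The 10 orange genes all lie right of 0, and the widest intervals, those of H1-5 and H3C11, span 0.

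H2B genes made up 6 of the 10 increases, out of 11 tested. H2BC6 (chromosome 6, 26172059 to 26184655) measured 27.3, 25.4 and 26.0 CPM in MEF2C hairpin libraries 1 to 3, against 19.7, 19.2 and 19.1 CPM in scramble libraries 1 to 3. The groups were well apart, at 26.2 ± 0.967 and 19.3 ± 0.297 CPM (SD, n = 3 each), and the log2 fold change was 0.44 (edgeR adjusted p = 2.02e-08, SE 0.0525). Other genes' exons on either strand cover 28.2% of its exonic bases. HTSeq can leave out reads there, depending on the strand setting, which is not given. H2BC17 (chromosome 6, 27893463 to 27893843) had the largest fold among the called members: 9.81, 9.59 and 11.4 CPM in MEF2C hairpin libraries, against 6.38, 5.85 and 7.60 CPM in scramble libraries. Library 3 was the highest of each group and the groups did not overlap, with a log2 fold change of 0.62 (edgeR adjusted p = 2.04e-06, SE 0.0949).

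H2BC21 (chromosome 1, 149884459 to 149886652) was the only called member outside chromosome 6. It measured 59.9, 57.5 and 61.8 CPM in MEF2C hairpin libraries, against 50.6, 49.1 and 49.1 CPM in scramble libraries, with a log2 fold change of 0.27 (edgeR adjusted p = 4.17e-07, SE 0.0369). All MEF2C hairpin values lay above all scramble values. H2BC5 (chromosome 6, 26158146 to 26171349) gave 51.1, 49.9 and 56.0 CPM in MEF2C hairpin libraries, against 39.2, 40.8 and 44.4 CPM in scramble libraries, a log2 fold change of 0.33 (edgeR adjusted p = 4.95e-07, SE 0.0454). Library 3 again led in each group, without making the groups meet.

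H2BC4 (chromosome 6, 26114873 to 26123926) gave 31.5, 33.8 and 34.6 CPM in MEF2C hairpin libraries, against 28.7, 26.5 and 27.9 CPM in scramble libraries, a log2 fold change of 0.26 (edgeR adjusted p = 3.96e-05, SE 0.0481). H2BC11 (chromosome 6, 27125897 to 27132750), the most abundant member, gave 78.7, 79.1 and 78.0 CPM in MEF2C hairpin libraries, against 70.7, 72.2 and 69.8 CPM in scramble libraries. Its replicates were close to each other, and its log2 fold change of 0.15, the smallest among the 10, passed (SE 0.0311, edgeR adjusted p = 0.000228). The other 5 tested H2B genes, H2BC3, H2BC7, H2BC8, H2BC15 and H2BC18, all under 6 CPM in every library, did not pass, with log2 fold changes of -0.07 to 0.73.

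Of 8 tested H2A genes, H2AC11 alone rose. H2AC11 (chromosome 6, 27133042 to 27135291) measured 23.8, 22.9 and 29.8 CPM in MEF2C hairpin libraries, against 18.3, 18.5 and 19.2 CPM in scramble libraries, a log2 fold change of 0.44 (edgeR adjusted p = 0.000304, SE 0.0782). MEF2C hairpin library 3 stood highest, and the other two hairpin libraries still lay above the scramble range. H2AC6, the most abundant H2A gene, gave 61.0, 60.9 and 65.1 CPM in MEF2C hairpin libraries, against 61.9, 56.8 and 60.1 CPM in scramble libraries. Its groups overlapped, and its log2 fold change of 0.06 (SE 0.0370, 95% interval -0.01 to 0.13) did not pass (edgeR adjusted p = 0.253). H2AC20 was below 1 CPM in every library except MEF2C hairpin library 3: 0.640, 0.598 and 2.99 CPM in MEF2C hairpin libraries, against 0.673, 0.851 and 0.817 CPM in scramble libraries, with no call (edgeR adjusted p = 0.566).

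**Figure D2:**
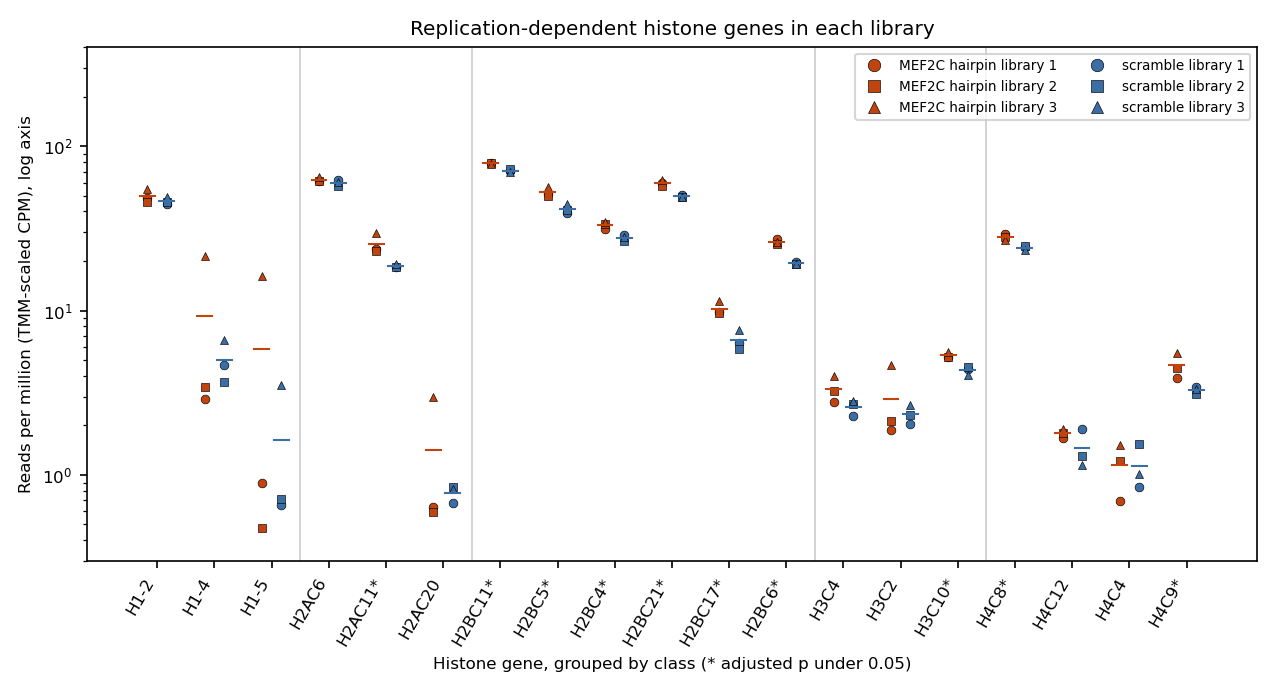
CPM on a log axis in each library for the 10 called histone genes (asterisks) and the most abundant genes of each class. Orange marks are MEF2C hairpin and blue marks scramble libraries, with circles, squares and triangles for libraries 1, 2 and 3, and lines for group means. The called genes show separate groups, while H1-4, H1-5 and H2AC20 have 1 orange triangle far above the rest.

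H3 and H4 genes were low per length, and 3 of their 14 tested genes rose. H3C10 (chromosome 6, 27810064 to 27811300) gave 5.20, 5.23 and 5.62 CPM in MEF2C hairpin libraries, against 4.42, 4.55 and 4.03 CPM in scramble libraries, a log2 fold change of 0.30 (edgeR adjusted p = 0.0379, SE 0.112). The groups stayed apart, yet this call was the least firm: it was lost in 8 of 15 alternatives, with edgeR adjusted p of 0.0588 to 0.256, among them without any 1 of the MEF2C hairpin libraries or without scramble library 1 or 3. H3C4 gave 2.78, 3.24 and 3.99 CPM in MEF2C hairpin libraries, against 2.28, 2.71 and 2.80 CPM in scramble libraries, and H3C2 gave 1.87, 2.12 and 4.68 CPM in MEF2C hairpin libraries, against 2.05, 2.33 and 2.67 CPM in scramble libraries. Both overlapped between groups and neither passed (edgeR adjusted p = 0.0723 for H3C4 and 0.693 for H3C2).

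Among H4 genes, H4C8 (chromosome 6, 26277609 to 26285638) gave 29.3, 27.9 and 26.9 CPM in MEF2C hairpin libraries, against 24.2, 24.6 and 23.3 CPM in scramble libraries, a log2 fold change of 0.22 (edgeR adjusted p = 0.000594, SE 0.0502). It was the clear leader of its class in both groups, which did not overlap. H4C9 (chromosome 6, 27138588 to 27139881) gave 3.91, 4.46 and 5.53 CPM in MEF2C hairpin libraries, against 3.41, 3.11 and 3.32 CPM in scramble libraries, a log2 fold change of 0.49 (edgeR adjusted p = 0.00430, SE 0.133). Without MEF2C hairpin library 3 its log2 fold change was 0.35 and it did not pass (edgeR adjusted p = 0.0562). H4C12 and H4C4 had overlapping groups. H4C12 gave 1.68, 1.80 and 1.91 CPM in MEF2C hairpin libraries, against 1.91, 1.30 and 1.15 CPM in scramble libraries, and H4C4 gave 0.690, 1.22 and 1.52 CPM in MEF2C hairpin libraries, against 0.850, 1.55 and 1.02 CPM in scramble libraries. Neither passed (edgeR adjusted p = 0.290 for H4C12 and 0.961 for H4C4).

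None of the 5 tested linker histone genes was called with all 6 libraries and group as the only term by edgeR, DESeq2 or limma-voom with the same filter, and 0 of the 5 had an unadjusted p under 0.05 in edgeR. Among the alternatives, edgeR called H1-3 with no filter, with the replicate block and without MEF2C hairpin library 2. H1-2, the most abundant, gave 48.2, 45.5 and 55.0 CPM in MEF2C hairpin libraries, against 44.6, 45.6 and 48.7 CPM in scramble libraries, with overlapping groups and a log2 fold change of 0.09 (SE 0.0576, 95% interval -0.02 to 0.20, edgeR adjusted p = 0.276). Without MEF2C hairpin library 2 it was called higher, at 0.15 (edgeR adjusted p = 0.0248). H1-4 gave 2.91, 3.42 and 21.3 CPM in MEF2C hairpin libraries, against 4.68, 3.67 and 6.60 CPM in scramble libraries. H1-5 gave 0.892, 0.476 and 16.2 CPM in MEF2C hairpin libraries, against 0.657, 0.717 and 3.50 CPM in scramble libraries. In both genes library 3 was the highest of its group, far more so under the MEF2C hairpin, and the fitted log2 fold changes of 0.81 and 1.74 had SEs of 0.996 and 1.74. Without MEF2C hairpin library 3, H1-4 was called lower, with a log2 fold change of -0.66 (edgeR adjusted p = 0.00711), and H1-5 stood at -1.32 with no call.

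This excess in library 3 ran through many of the scarcer members. A ratio of library 3 to the mean of libraries 1 and 2 above 1.5 was found in the MEF2C hairpin group for 15 of 38 tested members, against 4.49% of all tested genes, and in both groups for 7, against 0.871%. The 7 were H1-4, H1-5, H2AC4, H2BC7, H2BC8, H3C11 and H4C5. H3C11 gave 0.101, 0.122 and 2.58 CPM in MEF2C hairpin libraries, against 0.160, 0.202 and 0.467 CPM in scramble libraries. Some members too scarce for the test showed it too. H4C2 had 2, 2 and 58 reads in MEF2C hairpin libraries, against 4, 3 and 24 reads in scramble libraries, and H4C1, H4C3 and H2AC21 had the same order. Other scarce members went the other way. H2AC17 had 19, 14 and 4 reads in MEF2C hairpin libraries, against 16, 7 and 4 reads in scramble libraries. H2BC13 had 8, 10 and 1 reads in MEF2C hairpin libraries, against 5, 1 and 0 reads in scramble libraries.

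The excess was larger in members with shorter annotated exons. A limit of 800 bases, longer than any of the 6 H1 genes here, was set after the values had been seen and serves as description only. Of the 25 members above it, 16 were tested and 9 called. Of the 46 up to it, 22 were tested and 1, H2BC17, was called. Over all tested genes, 28.8% were called and 13.5% rose. Level ran with length here. Of the 11 tested members with a mean under 1 CPM, most of them short, 0 rose, beside 4.9% of all tested genes at that level. Length and level were not separated, so the split of calls is not a result about exon length. The median ratio of library 3 to the other libraries in the MEF2C hairpin group was 1.07 over the longer and 1.66 over the shorter tested members, and in the scramble group 1.01 and 1.08. The summed reads of the shorter members were 81.5, 78.6 and 148 RPM (CPM of unscaled gene totals) in MEF2C hairpin libraries, against 72.6, 73.1 and 85.2 RPM in scramble libraries.

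**Figure D3:**
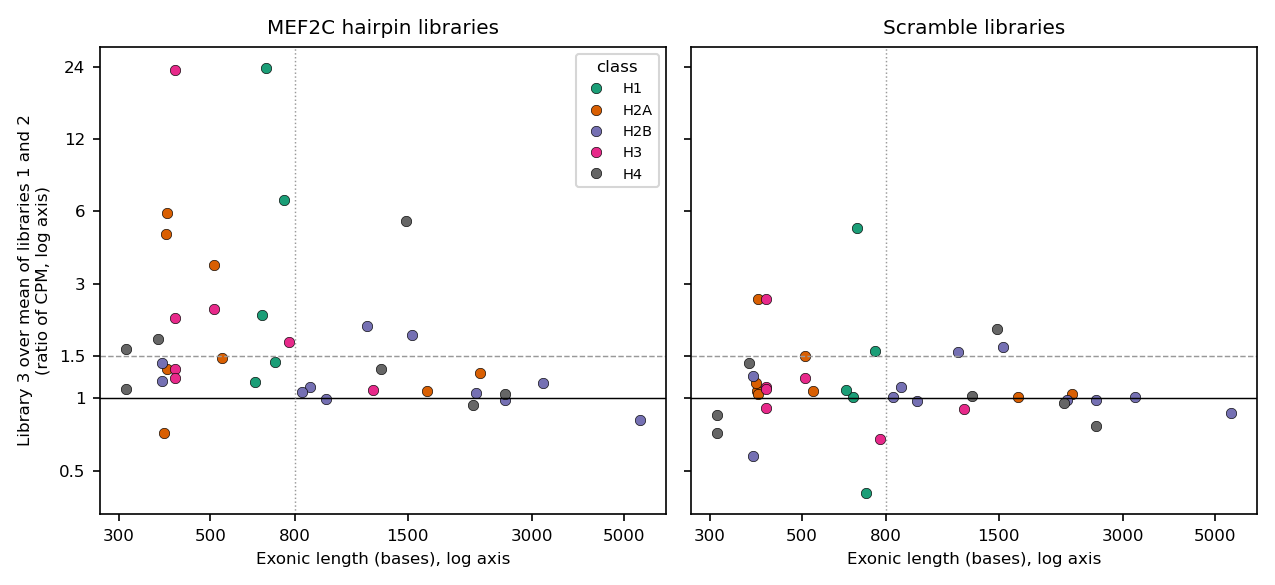
Ratio of CPM in library 3 to the mean of libraries 1 and 2 (y axis, log) against exonic length in bases (x axis, log) for the 38 tested histone genes, with MEF2C hairpin libraries on the left and scramble libraries on the right. The dotted line marks 800 bases and the dashed line a ratio of 1.5. The highest points, H1-5 at 23.7 and H3C11 at 23.2, are short genes in the MEF2C hairpin group.

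Library 3 stood apart in other measures as well. Reads that aligned to several places made up 3.82, 3.56 and 16.1% of all reads in MEF2C hairpin libraries, against 3.67, 4.19 and 6.86% in scramble libraries. RN7SL1, the non-polyadenylated RNA of the signal recognition particle, gave 11.1, 9.49 and 37.0 CPM in MEF2C hairpin libraries, against 10.2, 13 and 24.7 CPM in scramble libraries. Telomerase RNA (TERC) gave 0.202, 0.122 and 0.135 CPM in MEF2C hairpin libraries, against 0.240, 0.179 and 0.100 CPM in scramble libraries, and showed no such order. TERC had only 6 to 15 reads per library, and 81% of its exonic bases lie under other genes' exons, so its level is uncertain. RN7SK, RN7SL2, RMRP, RPPH1, RNU7-1 and SCARNA2 were listed at 0 in every library. In GENCODE 29 the exons of RN7SL1 and of each of these except RN7SL2 lie 100% under exons of other genes on either strand. HTSeq can leave out shared reads there, depending on the strand setting, which is not given. The zeros therefore set no limit, and the level of RN7SL1 is uncertain. The part of these differences in the histone values was not tested.

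Leaving out both libraries numbered 3, an alternative added after the data had been seen, left 8 members higher and 0 lower, where 10.1% of all tested genes were higher. The members' median log2 fold change was then 0.09. The 8 were among the original 10, and H4C9 and H3C10 were lost. Without MEF2C hairpin library 3 alone, 8 members were higher, 1, H1-4, was lower, and the median was 0.15.

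Summed over the family, histone genes took 468, 464 and 562 RPM in MEF2C hairpin libraries, against 400, 391 and 413 RPM in scramble libraries. The groups did not overlap, at 498 ± 55.5 and 402 ± 11.1 RPM (SD, n = 3 each), a ratio of 1.24, and without both libraries numbered 3 the MEF2C hairpin group remained 70.4 RPM higher. H2B held the larger part, with 270, 271 and 287 RPM in MEF2C hairpin libraries, against 222, 217 and 225 in scramble libraries. H1 groups overlapped, at 55.8, 53.0 and 101 RPM in MEF2C hairpin libraries, against 51.6, 51.7 and 60.4 in scramble libraries. H4 was nearly constant in scramble libraries, between 32.2 and 32.4 RPM, below the 38.0 to 45.9 RPM of the MEF2C hairpin libraries. The 10 called members, whose choice fixes the direction, made up 324, 321 and 342 RPM in MEF2C hairpin libraries, against 262, 259 and 265 in scramble libraries.

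**Figure D4:**
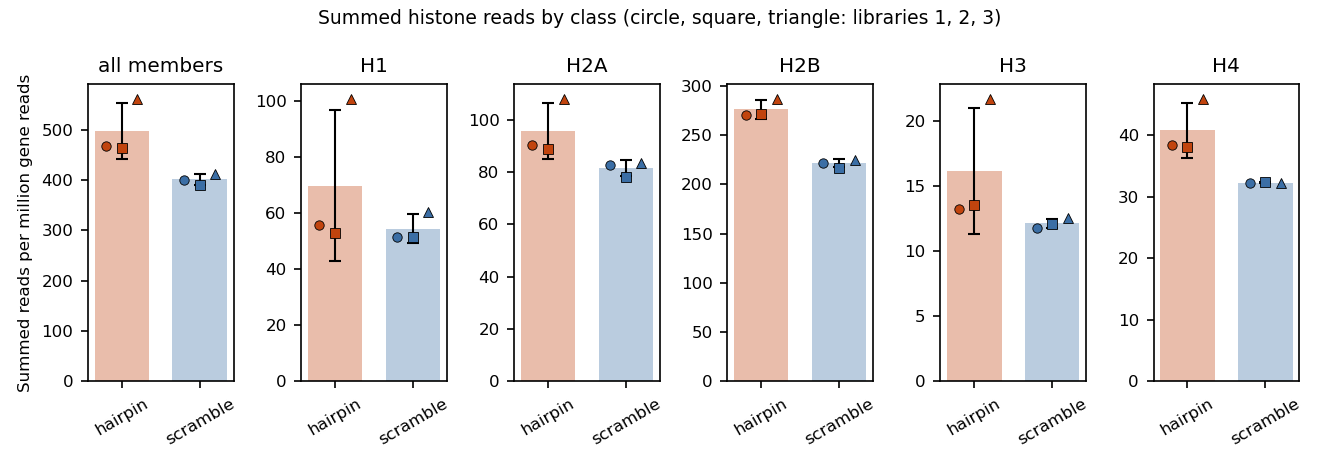
Summed RPM (y axis, CPM of unscaled gene totals) of all 71 histone genes and of each class, with MEF2C hairpin libraries (orange) left of scramble libraries (blue). Bars are means, error bars SD over 3 libraries, and circles, squares and triangles libraries 1, 2 and 3. The groups are apart for all members, H2A, H2B, H3 and H4 and overlap for H1, where MEF2C hairpin library 3 reaches 101.

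Many H2A and H2B genes sit head to head and share the sequence between their starts. By RefSeq starts, 13 pairs of members on opposite strands began within 1000 bases of each other, 11 of them of an H2A and an H2B gene. Both genes were tested in 6 pairs: both rose in 1, one rose in 2 and neither in 3. The pair that rose was H2BC11 and H2AC11, whose starts are 248 bases apart. In the pair H2BC21 and H2AC20, 236 bases apart, H2BC21 rose while H2AC20 averaged near 1 CPM and was not called. In the pair H2BC4 and H2AC6, 246 bases apart, both genes were abundant, with log2 fold changes of 0.26 for H2BC4, which rose, and 0.06 for H2AC6, which was not called. The differences within pairs were not tested.

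Promoter sequence is shown for all 6 called H2B genes, because H2B supplied most of the calls, and for H4C8, the called gene with the highest level outside H2B. Sequences are from RefSeq (GRCh38.p14), from 250 bases before to 50 bases after the gene start, on the gene's strand. Capitals mark the octamer ATTTGCAT, the site of the OCT1 factor (POU2F1) known from H2B promoters, the CCAAT box and the TATA box TATAAA, on either strand, and they can overlap.
H2BC6 at chr6:26183511-26183810, plus strand: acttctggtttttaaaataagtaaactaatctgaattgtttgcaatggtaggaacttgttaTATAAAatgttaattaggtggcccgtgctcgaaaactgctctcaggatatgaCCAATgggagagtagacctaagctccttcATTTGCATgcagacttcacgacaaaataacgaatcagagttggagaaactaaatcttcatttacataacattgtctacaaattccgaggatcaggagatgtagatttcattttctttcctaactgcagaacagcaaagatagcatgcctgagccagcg
H2BC17 at chr6:27893175-27893474, plus strand: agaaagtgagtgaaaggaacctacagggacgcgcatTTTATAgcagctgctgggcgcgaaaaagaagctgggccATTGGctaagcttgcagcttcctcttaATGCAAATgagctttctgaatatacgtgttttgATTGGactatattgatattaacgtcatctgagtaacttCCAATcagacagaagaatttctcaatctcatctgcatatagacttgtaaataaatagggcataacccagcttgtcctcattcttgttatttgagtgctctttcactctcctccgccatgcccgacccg
H2BC21 at chr1:149886633-149886932, minus strand: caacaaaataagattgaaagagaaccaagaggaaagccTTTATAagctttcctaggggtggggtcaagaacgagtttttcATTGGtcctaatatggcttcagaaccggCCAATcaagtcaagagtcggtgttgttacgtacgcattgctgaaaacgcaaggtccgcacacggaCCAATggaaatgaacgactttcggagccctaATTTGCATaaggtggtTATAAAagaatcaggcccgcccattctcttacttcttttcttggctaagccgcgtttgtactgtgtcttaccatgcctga
H2BC5 at chr6:26157871-26158170, plus strand: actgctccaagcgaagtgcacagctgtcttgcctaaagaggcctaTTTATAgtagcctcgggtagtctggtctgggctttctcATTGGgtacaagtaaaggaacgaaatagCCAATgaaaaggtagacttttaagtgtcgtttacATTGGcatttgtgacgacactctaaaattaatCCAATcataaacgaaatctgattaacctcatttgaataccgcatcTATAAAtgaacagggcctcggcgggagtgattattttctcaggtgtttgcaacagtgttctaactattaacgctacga
H2BC4 at chr6:26123877-26124176, minus strand: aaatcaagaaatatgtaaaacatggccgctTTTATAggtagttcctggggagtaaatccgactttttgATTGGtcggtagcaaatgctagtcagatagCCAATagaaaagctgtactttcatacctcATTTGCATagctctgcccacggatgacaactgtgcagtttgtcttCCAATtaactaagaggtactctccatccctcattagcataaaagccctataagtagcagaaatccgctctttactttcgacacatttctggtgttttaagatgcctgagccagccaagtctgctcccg
H2BC11 at chr6:27132746-27133045, minus strand: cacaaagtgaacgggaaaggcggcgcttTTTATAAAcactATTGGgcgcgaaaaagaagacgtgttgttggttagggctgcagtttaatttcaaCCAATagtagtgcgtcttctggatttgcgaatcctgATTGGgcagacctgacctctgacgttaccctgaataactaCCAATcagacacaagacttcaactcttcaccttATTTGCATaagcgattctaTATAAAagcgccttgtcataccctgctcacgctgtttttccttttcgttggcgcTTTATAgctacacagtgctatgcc
H4C8 at chr6:26285485-26285784, minus strand: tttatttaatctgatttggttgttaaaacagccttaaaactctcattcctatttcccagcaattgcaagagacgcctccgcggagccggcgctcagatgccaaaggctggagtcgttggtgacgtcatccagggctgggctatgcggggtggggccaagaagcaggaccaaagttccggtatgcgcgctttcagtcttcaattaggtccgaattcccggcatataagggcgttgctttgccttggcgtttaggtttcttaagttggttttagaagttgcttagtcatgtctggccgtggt
The octamer is in 5 of these 6 H2B promoters and not in that of H2BC5. All 6 hold CCAAT and TATAAA, and that of H4C8 holds none of the 3 motifs. The search set no position, so a match of TATAAA need not be a TATA box. In H2BC6, H2BC17 and H2BC4 the only TATAAA lies far upstream of the gene start, in H2BC17 and H2BC4 on the opposite strand. Of the 71 members 65 matched a RefSeq promoter. The octamer was in 14 of 18 H2B, 11 of 16 H2A, 1 of 12 H3, 0 of 6 H1 and 0 of 13 H4 promoters, against 1.77% of 35116 promoters of all genes. CCAAT was in 55 of 65 member promoters, against 34.6% of all, and TATAAA in 43 of 65, against 11.5%. Head-to-head H2A and H2B genes share much of these windows. A site between their starts can count for both genes, so these counts are not independent. The octamer was in 6 of the 10 promoters of called members and in 9 of the 25 found for tested members without a call. POU2F1 itself was not called, with a log2 fold change of 0.04 (edgeR adjusted p = 0.360).

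Of 34 genes for histone transcription, 3′ end formation and histone mRNA decay, 2 rose and 12 fell, with a median log2 fold change of -0.05. The shares over all tested genes were 13.5% higher and 15.3% lower. SLBP gave 170, 170 and 171 CPM in MEF2C hairpin libraries, against 177, 180 and 181 CPM in scramble libraries, a log2 fold change of -0.07 (edgeR adjusted p = 0.0156, SE 0.0234). The groups did not overlap, but the call was lost in 5 of 15 alternatives, including without MEF2C hairpin library 2, scramble library 2 or scramble library 3. NPAT gave 77.5, 75.0 and 80.8 CPM in MEF2C hairpin libraries, against 79.7, 78.6 and 80.2 CPM in scramble libraries, and was not called (edgeR adjusted p = 0.472). The genes with the smallest adjusted p were UPF1, the helicase of histone mRNA decay, DCP2, the decapping enzyme, and SRRT, a cap-complex partner in 3′ end formation. UPF1 gave 214, 210 and 211 CPM in MEF2C hairpin libraries, against 244, 255 and 254 CPM in scramble libraries, a log2 fold change of -0.24 (edgeR adjusted p = 6.69e-11). DCP2 had a log2 fold change of -0.15 and SRRT of -0.14 (edgeR adjusted p = 2.68e-06 and 5.09e-06). Of the U7 particle's own proteins, LSM10 rose, with a log2 fold change of 0.20, and LSM11 fell, at -0.15 (edgeR adjusted p = 0.0122 and 0.00905). The count of 14 called genes in this list was 9 without MEF2C hairpin library 3, 9 without scramble library 2 and 8 without both libraries numbered 3.

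Of 29 histone chaperones and carriers, 1 rose and 15 fell, beside 13.5% and 15.3% of all tested genes. Their median log2 fold change was -0.06. SET, a chaperone and acetylation inhibitor, was the increase, with a log2 fold change of 0.23 (edgeR adjusted p = 1.77e-13). SPTY2D1, the human SPT2 chaperone of H3-H4, had -0.37 and RBBP4, a CAF-1 subunit, had -0.16 (edgeR adjusted p = 8.25e-13 and 2.15e-08). The other CAF-1 subunits CHAF1A and CHAF1B, the H3-H4 carriers ASF1B and NASP and the FACT subunit SUPT16H also fell, with log2 fold changes of -0.18 to -0.11.

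Replication-independent histone variants are also made outside S phase, from genes that usually have introns and give mRNAs with poly(A) tails. Of 18 listed, 10 were tested, 1 rose and 3 fell, beside 13.5% and 15.3% of all tested genes. The increase was H2AX, the variant phosphorylated at DNA breaks, which gave 405, 377 and 405 CPM in MEF2C hairpin libraries, against 232, 238 and 231 CPM in scramble libraries. The groups were far apart, library 3 did not lead, and the log2 fold change was 0.76 (edgeR adjusted p = 1.89e-24, SE 0.0242). H2AX (chromosome 11, 119093854 to 119095467) is known for an mRNA made in both a stem-loop and a polyadenylated form, and the same search found the element in its 1614-base transcript, followed by 1044 bases.
H2AX, chromosome 11: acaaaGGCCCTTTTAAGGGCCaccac
H3-3B and H3-3A, which encode the replacement histone H3.3, had log2 fold changes of -0.20 and -0.09 and MACROH2A1 of -0.12 (edgeR adjusted p = 1.25e-10, 0.00367 and 9.16e-06). H2AZ1, H2AZ2 and CENPA, the variants of promoters and centromeres, had log2 fold changes of -0.05 to 0.03 and were not called.

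Of 18 genes of the G1/S transition, when histone synthesis starts, 1 rose and 9 fell, with a median log2 fold change of -0.06. Beside this and the G2/M list below, 13.5% of all tested genes rose and 15.3% fell. Some G1/S genes are also counted in the processing or chaperone list, among them SLBP and CHAF1B, which fell. These lists are therefore not independent. The increase was MCM4, a helicase subunit, at 0.10 (edgeR adjusted p = 0.000447). GINS2, RRM1 and TYMS had log2 fold changes of -0.34, -0.24 and -0.20 (edgeR adjusted p = 1.04e-08, 1.26e-11 and 2.80e-10). PCNA, the replication clamp, gave 380, 384 and 379 CPM in MEF2C hairpin libraries, against 375, 375 and 372 CPM in scramble libraries, and was not called (edgeR adjusted p = 0.364). Of 15 G2/M genes, 2 rose and 4 fell, and TPX2, BIRC5 and MKI67 had log2 fold changes of -0.14, -0.15 and -0.11 (edgeR adjusted p = 1.17e-06, 1.17e-05 and 1.78e-05). LSM10, LSM11, H3-3A, MCM4, PCNA, POU2F1, CHAF1A, CHAF1B, ASF1B, NASP, SUPT16H, H2AZ1, H2AZ2 and CENPA were named after their values had been seen.

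**Figure D5:**
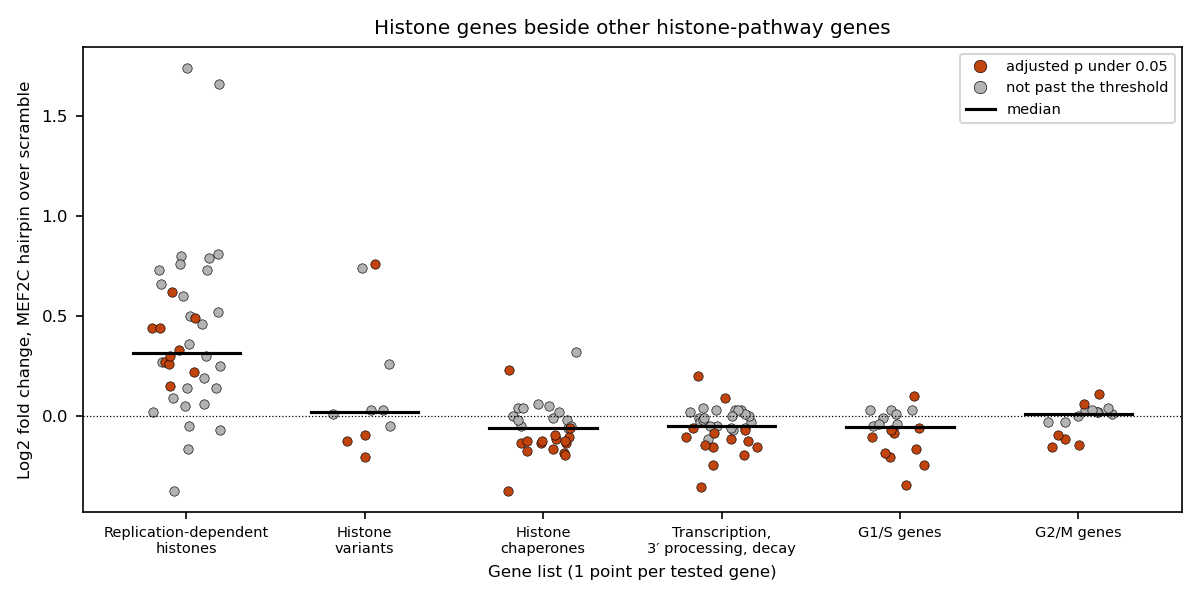
Log2 fold change (y axis, MEF2C hairpin over scramble) of each tested gene in 6 lists, with the replication-dependent histones at the left. Orange points passed an adjusted p of 0.05, gray points did not, and black lines are medians. Genes that belong to several lists, such as SLBP and CHAF1B, are shown in each. The histone median is 0.32, the other medians lie between -0.06 and 0.02, and the highest orange point is H2AX at 0.76.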

How the data were processed

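The deposited values are raw counts of reads per gene, whole numbers that the authors made for each library separately. The submitters' processing notes name Trim Galore, STAR, HTSeq and the build hg38. Versions, annotation release and strand setting are not given in the sources used here. Total RNA was TRIzol-extracted and the libraries came from a TruSeq kit, per the labels' protocols. The 5 summary lines that name no gene, 19.2 to 31.4% of all reads, stayed out of library sizes and tests.

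Symbols matched 61481 of 78932 identifiers. Genes were kept by filterByExpr (minimum count 10), scaled by TMM and fitted with edgeR 4.0.16 (R 4.3.3), quasi-likelihood, robust, with group as the only term. P-values were adjusted by Benjamini-Hochberg over all 17677 genes tested, and the threshold was 0.05. The SE was taken as the size of the log2 fold change divided by the root of F. The 95% intervals use this SE with a normal quantile and are approximate. For members whose libraries differ widely, such as H1-4 and H1-5, they are narrower than the F test implies. CPM use TMM-scaled library sizes, and summed RPM use unscaled gene totals. RPKM divides CPM by the exonic bases of all isoforms. Promoters were RefSeq GRCh38.p14 and transcripts GENCODE 29. The fit was tested on simulated data.

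Members and gene lists were chosen with earlier results of these data known. Genes named in full are called members, the 3 highest members of each class by RPKM, up to 3 called genes of each list with the smallest adjusted p, SLBP, NPAT, MEF2C and 8 RNAs that are mostly not polyadenylated. Alternatives were DESeq2 size factors, upper-quartile scaling, no filter, at least 1 CPM in 3 libraries, a replicate block, offsets for GC content and length, DESeq2 1.42.0, limma-voom (limma 3.58.1) and leaving out each library. Between replicates, chi-square per gene was 3.32 to 4.50, and all were kept as separate libraries.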

Additional observations from a re-analysis of the deposited data

Results flagged for a closer look

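In MEF2C hairpin library 3, 16.1% of all reads aligned to several places and were left out of the gene counts, above the 3.67 to 6.86% of the scramble libraries. These reads enter no comparison above. Histone genes with near-identical copies can lose reads this way, and the part of these reads that came from histone genes was not tested.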

How the results depend on the processing

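The 10 members called higher were 9 to 12 of the tested members under the scaling, filter, model and offset alternatives, with 0 lower, and 8 of the 10 were called in all 15 alternatives. The labels link samples of the 2 groups only by replicate number. Over all tested genes, correlations of their deviations ran from -0.0137 to 0.0121. Such correlations do not show whether a few genes, such as those with the library 3 excess, deviate together. The replicate block called 12 members, the same 10 with H1-3 and H2BC7. Leaving out 1 library gave 9 to 11 calls (8 to 11 higher), and 0 or 1 lower, the 1 being H1-4 without MEF2C hairpin library 3. The median log2 fold change of members ran from 0.15 to 0.47 in these, and the difference in summed reads from 64.5 to 113 RPM. The histone processing list had 14 calls, 9 to 12 with 1 library left out, and 8 without both libraries numbered 3. The summed difference, 96.6 RPM, was 82.7 RPM with TMM-scaled sizes.

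H3C10 was not past the threshold with no filter (log2 fold change 0.31), with offsets for GC content and length (0.28), without both libraries numbered 3 (0.22) and without MEF2C hairpin library 1 (0.32), 2 (0.32) or 3 (0.27) or scramble library 1 (0.32) or 3 (0.25), with adjusted p from 0.0588 to 0.256 in edgeR. Signs turned only among members that were not called. With 1 library left out, log2 fold changes ran from -0.66 to 1.24 for H1-4, -1.32 to 3.03 for H1-5, -0.33 to 1.20 for H2AC20, -0.23 to 0.49 for H3C2 and -0.20 to 0.29 for H4C4, the lowest always without MEF2C hairpin library 3. Without both libraries numbered 3 they were -0.40, -0.04, -0.29, -0.12 and -0.27 for the same genes. H4C4 was also at -0.02 with the replicate block, -0.05 with the GC and length offsets, -0.03 without MEF2C hairpin library 2, and -0.15 and -0.05 without scramble libraries 1 and 3. For all of these the cause was not tested. Low counts limit the scarcer members: 17 had at most 3 reads in every library.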
